A study of Cavia porcellus with 10 samples.

Results

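The genes described here are the chemokines, the interleukins and related cytokines, and the receptors of both, in the cervix of the guinea pig. They were chosen by gene name alone: CCL, CXCL, CX3CL, XCL, CCR, CXCR or CX3CR with a number, an interleukin number with or without a receptor suffix, and LIF, LIFR, CSF1, CSF2, CSF3 and TNF, without the interleukin-1 genes and their receptors, IL18 and IL33. Of 25028 genes in the table, 20251 had a gene name and 69 met the rule. They were 10 CC ligands, 7 CXC and CX3C ligands, 11 chemokine receptors, 22 interleukins or other cytokines and 19 cytokine receptors. No gene stood under the plain names TNF or CSF2. RNA came from the vaginal portion of the cervix of Hartley guinea pigs in 3 stages, with each library made from a separate animal. The stages were non-pregnant and in estrus (NP, n = 3), mid-pregnancy (MT, n = 3) and late pregnancy without labor (LT, n = 4). Gestational age was 43.6 ± 0.5 days in MT and 65.2 ± 1.2 days in LT according to the labels. Mating dates of the purchased animals were uncertain, and age was estimated from measures of the fetuses. The ages of the mothers were not given in the sources used here.

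Chemokines are small secreted proteins that direct the migration of cells. CC and CXC ligands bind G protein coupled receptors of the CCR and CXCR series, CX3CL1 binds CX3CR1, and atypical receptors such as CXCR7 take up ligand without the usual G protein signal. Interleukins and colony stimulating factors are secreted messengers of immune and epithelial cells, whose receptors are mostly pairs or sets of chains, and several families share a chain, such as IL6ST (gp130) in the interleukin-6 family and IL2RG in the interleukin-2 family. In the cervix, inflammatory cytokines and the leukocytes they attract have long been studied in connection with ripening before birth.

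Levels are given as TPM, which the authors derived from read counts, and which correct for gene length and sum to the same total in every animal, so that levels of different genes can be set side by side. Between 18730665 and 27881572 reads per animal were counted on genes. The log2 fold change (log2FC, with its standard error, SE) is the difference of mean log2(TPM + 1) between 2 stages, and it understates the change where TPM is low. Adjusted P-values come from limma over the 12645 genes whose mean reached 3 TPM in 1 stage or more, and a gene was called when the adjusted P was under 0.05. Calls lost with the replicate number as a block are named together in the closing section, not gene by gene. Two-sided exact permutation tests of square-root TPM were run for each gene of the group, which cannot give less than P = 0.1 for 3 animals against 3 or less than P = 0.0286 for 3 against 4. From MT to LT the exact P was 0.0857 for the called genes IL17B and CCL14 and 0.0571 for IL17RA. From NP to LT it was 0.171 for IL17B, 0.114 for IL16 and 0.0857 for CXCR6. For CXCR7, CCL17, CX3CR1, IL27RA, IL28RA and IL7 it was 0.0571. Every other call had the smallest exact P that its comparison allows. One animal, NP replicate 1, stood apart from its stage, with a correlation of log2(TPM + 1) over genes of 0.924 to 0.945 with the other NP animals, against 0.983 between those. Its summed level of the squamous epithelium markers was 4007 TPM, against 1415 and 1301 TPM in NP replicates 2 and 3. Because the samples were pieces of tissue, fewer cells of a type and less RNA per cell cannot be told apart in any value below.

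Most of the 69 genes were scarce. No read was counted for CCL1, IL9 and IL21. Another 7 genes had fewer than 10 reads over all animals, namely CCL26, CXCL13, IL13, IL20, IL22, IL25 and IL27. In all, 23 genes stayed below 1 TPM in every animal. A mean of at least 3 TPM was reached by 33 genes in NP, by 26 in MT and by 22 in LT, and 20 genes reached it in all stages. The abundant end was narrow. CCL21, CXCL17 and IL6ST held 56.9% of the summed mean TPM of all 69 genes, and with CXCL12, CXCR7, IL17B and IL4R this share was 80.0%.

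**Figure D1:**
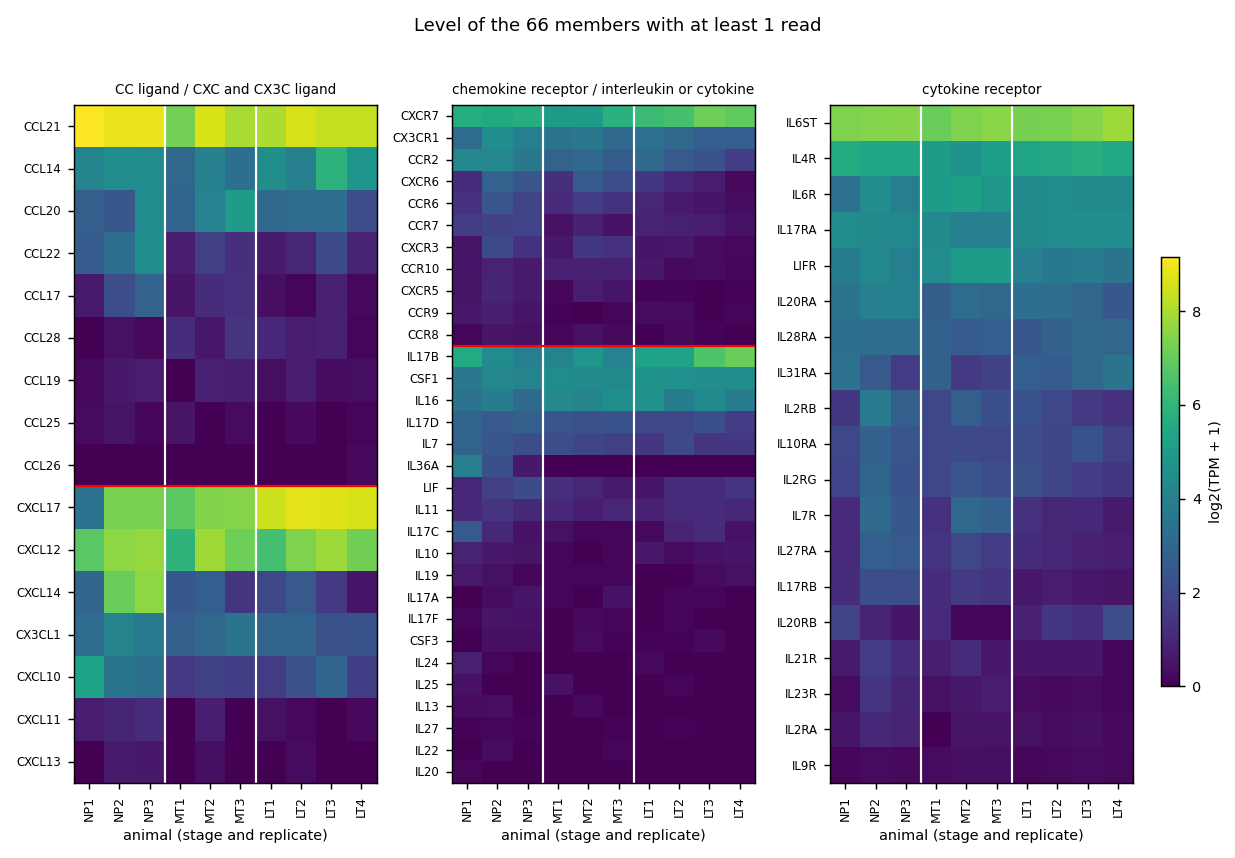
Level of the 66 genes with at least 1 read, as log2(TPM + 1) by color, in each of the 10 animals (columns, with white lines between stages), ordered by mean within the classes that red lines separate. CCL21, CXCL17, CXCL12, IL6ST and CXCR7 are bright in almost every animal, CXCL14 is bright only in NP replicates 2 and 3, IL36A has no read outside NP, and most interleukins stay dark throughout.

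Of the 33 genes tested, 25 were called in at least 1 comparison and none in all 3. The same count over all genes was not made, so these counts cannot be read as a trait of the group. From NP to MT 12 were called, or 36.4%, against 18.5% of all genes tested. Of these, 9 were lower and 3 higher in MT, where 12.2% and 6.27% of all genes were. From MT to LT 7 were called, or 21.2%, against 29.4% of all genes, with 5 higher (6.73% of all genes) and 2 lower (22.7%) in LT. From NP to LT 19 were called, or 57.6%, against 53.1%, with 5 higher (11.2%) and 14 lower (41.9%). The median log2FC of the 33 genes was -0.43, -0.09 and -0.55 in these comparisons, and that of all genes tested -0.14, -0.16 and -0.28. The second of the group's medians was above 0 with edgeR and DESeq2 (0.0197 and 0.0170). All 33 had passed the filter through their mean in NP, so that the excess of lower genes cannot be read as a property of the group. For 5 of them, CCL17, CCL22, IL27RA, IL36A and IL7, NP was the only stage with a mean of 3 TPM, and since they were tested only because they were high there, their falls from NP are given as a description. Among the 40 genes that passed a filter blind to stage, a mean of 1 TPM over all animals, 13, 8 and 22 were called, against 18%, 28.3% and 51.9% of all genes. With no filter, 10, 8 and 27 of 66 genes were called, against 14%, 19.8% and 41.8%. With edgeR on the read counts 7, 8 and 18 of the 33 were called, against 18%, 29% and 49.4% of all genes. After scaling each animal by the median ratio of its genes, which moved the median of all genes to -0.02, 0.00 and 0.00, the 33 genes gave 4 higher and 4 lower, 6 higher and 1 lower, and 7 higher and 10 lower. Over all genes that scaling called 18.1% (10.4% higher, 7.74% lower), 29.4% (14% higher, 15.3% lower) and 49.7% (24.7% higher, 25% lower). Animals of the compared stages did not overlap for 4 higher and 11 lower of the 33 genes from NP to MT, against 34.9% of all genes (11.4% higher, 23.5% lower). From MT to LT there were 5 higher and 5 lower, against 46.3% (10.8% and 35.5%), and from NP to LT 4 higher and 11 lower, against 52.4% (11.8% and 40.6%).

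**Figure D2:**
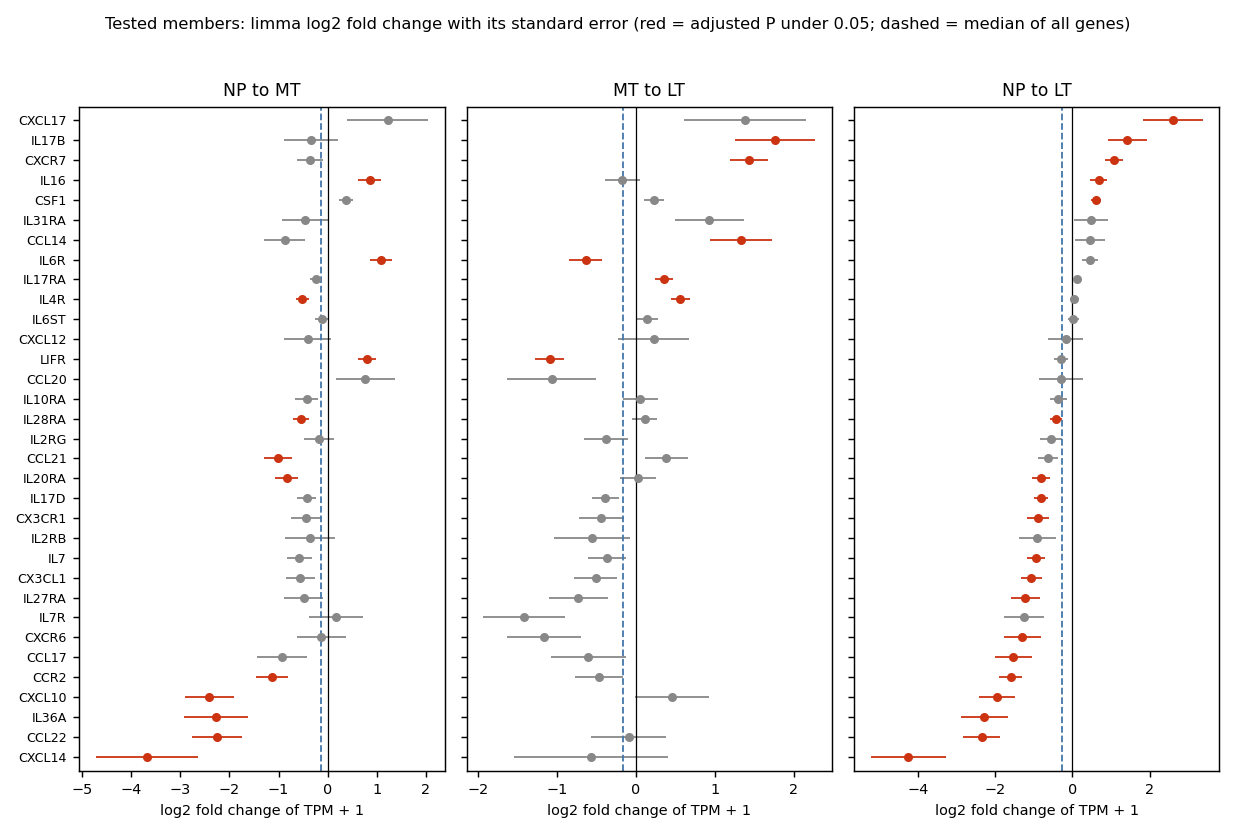
Log2FC of TPM + 1 (points) with its SE (lines) for the 33 genes tested, in the comparisons NP to MT, MT to LT and NP to LT. Red points have a limma adjusted P under 0.05, the dashed line is the median of all genes tested (-0.14, -0.16 and -0.28), and CXCL17, IL17B and CXCR7 lie farthest to the right from NP to LT while CXCL14, CCL22 and IL36A lie farthest to the left.

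Among the abundant ligands, CXCL17 (ENSCPOG00000021240), a chemokine of mucosal epithelia, rose from NP to LT. Its level was 10.2, 157 and 158 TPM in the NP animals, 114, 171 and 179 TPM in the MT animals, and 353, 438, 415 and 384 TPM in the LT animals. Every LT animal lay above every NP and every MT animal, while NP and MT overlapped, with NP replicate 1 far below all others. The stage means were 108 ± 85.1 TPM (SD, n = 3), 155 ± 35.4 TPM (SD, n = 3) and 397 ± 37.0 TPM (SD, n = 4). Between NP and LT the log2FC was 2.60 (SE 0.77, adjusted P = 0.0175), and without NP replicate 1 it was 1.32 (adjusted P = 0.000312), below the 1.89 of IL17B without that animal. The log2FC of CXCL17 between MT and LT was 1.38 and was not called (adjusted P = 0.196), although the animals did not overlap (exact permutation test, P = 0.0286), and over all alternatives the adjusted P ranged from 0.000977 to 0.365. The mucus and secretory epithelium genes AGR2 and MUC5B also rose from NP to LT. AGR2 was at 104 to 219 TPM in NP and at 5547 to 7559 TPM in LT, and MUC5B was, like CXCL17, lowest in NP replicate 1 at 9.86 TPM. Their part in the CXCL17 values was not tested.

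IL17B (ENSCPOG00000019682), a cytokine of the interleukin-17 family that signals through IL17RB, had 47.4, 20.3 and 14.6 TPM in NP, 16.4, 26.3 and 15.6 TPM in MT, and 38.4, 37.8, 98.5 and 136 TPM in LT. All LT animals were above all MT animals, and LT replicates 3 and 4 were above every other animal, but NP replicate 1 overlapped the LT range. The log2FC was 1.76 from MT to LT (SE 0.51, adjusted P = 0.028) and 1.42 from NP to LT (SE 0.51, adjusted P = 0.0385). Neither call was firm. The MT to LT call was lost without any 1 of the MT animals (adjusted P = 0.0522 to 0.0845), LT replicate 3 (0.0735) or LT replicate 4 (0.0641), and the NP to LT call without NP replicate 2, NP replicate 3, MT replicate 3, LT replicate 3 or LT replicate 4 (0.0515 to 0.145). The latter was also lost on square-root TPM, with no filter and with only the stages compared (adjusted P = 0.0521, 0.0573 and 0.0639). Its receptor IL17RB was too scarce to be tested, at 1.25 to 3.61 TPM in NP, 1.23 to 1.95 in MT and 0.394 to 0.601 TPM in LT, so that ligand and receptor had their highest means in different stages.

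CCL14 (ENSCPOG00000026493), a CC ligand that attracts monocytes, had 16.6, 21.4 and 20.5 TPM in NP, 7.50, 14.8 and 9.20 TPM in MT, and 22.0, 14.6, 60.0 and 26.9 TPM in LT. LT replicate 3 was highest and LT replicate 2 lay within the MT range. It rose between MT and LT by a log2FC of 1.33 (SE 0.39, adjusted P = 0.0304). Leaving out MT replicate 1, MT replicate 3 or LT replicate 4 ended this call (adjusted P = 0.0958, 0.0848 and 0.0638), as did square-root TPM (adjusted P = 0.0597). Of the monocyte, macrophage and dendritic cell markers, CD163 and CD14 were likewise highest in LT replicate 3, while CD68 was highest in NP replicate 3 (84.8 TPM) and ITGAX in NP replicate 2 (7.61 TPM). CD163 lay between 3.34 and 6.11 TPM in the NP and MT animals, and had 20.7, 13.0, 47.3 and 30.2 TPM in LT (MT to LT, adjusted P = 0.00395). Their part in the CCL14 values was not tested.

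CSF1 (ENSCPOG00000003815), the growth factor of macrophages, showed the most even series. Its level was 11.8, 17.8 and 15.9 TPM in NP, 20.6, 19.1 and 19.2 TPM in MT, and 25.6, 23.6, 21.9 and 21.9 TPM in LT. No animal overlapped with another stage in any comparison, and a permutation of the F statistic over the 3 stages gave P = 0.000476, the smallest that it can give. The log2FC from NP to LT was 0.60 (SE 0.13, adjusted P = 0.00389), and the steps from NP to MT (0.37, adjusted P = 0.0905) and from MT to LT (0.23, adjusted P = 0.205) were not called on their own. Its receptor CSF1R had 32.2 to 42.7 TPM in NP, 24.2 to 30.5 in MT and 25.7 to 36.2 TPM in LT, with no call in any comparison.

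IL16 (ENSCPOG00000015489), a chemoattractant of CD4+ cells, was at 10.3, 13.2 and 7.86 TPM in NP, 19.0, 17.0 and 22.4 TPM in MT, and 23.8, 13.6, 19.3 and 13.5 TPM in LT. Every pregnant animal was above every NP animal, and MT and LT overlapped. It rose from NP to MT by a log2FC of 0.86 (SE 0.24, adjusted P = 0.0325) and was higher in LT than in NP by 0.68 (SE 0.22, adjusted P = 0.0251). The first call was lost without NP replicate 3 or without any 1 of the MT animals (adjusted P = 0.0531 to 0.119), and the second without NP replicate 3, LT replicate 1 or LT replicate 3 (adjusted P = 0.0552 to 0.103).

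A second set of ligands was highest in estrus. CXCL14 (ENSCPOG00000020514), a chemokine made by epithelial cells and fibroblasts, had the largest fitted decrease among the 33 genes tested. It stood at 6.94, 134 and 193 TPM in NP, 4.68, 5.64 and 1.63 TPM in MT, and 2.92, 4.81, 1.94 and 0.419 TPM in LT. NP replicates 2 and 3 were far above all other animals, and NP replicate 1 was only just above the highest pregnant animal. The log2FC was -4.25 from NP to LT (SE 0.97, adjusted P = 0.00506) and -3.68 from NP to MT (SE 1.04, adjusted P = 0.0358). The NP to LT call held with each animal left out, the NP to MT call was lost without NP replicate 2 or 3, any MT animal or LT replicate 3 (adjusted P = 0.0534 to 0.125) and with no filter or only the stages compared (0.0537 and 0.0939), and without NP replicate 1 the NP mean was 163 TPM in place of 111 TPM.

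CXCL10 (ENSCPOG00000002046), an interferon-induced ligand of CXCR3, had 38.9, 10.7 and 9.50 TPM in NP, 1.87, 2.47 and 2.27 TPM in MT, and 1.99, 3.84, 6.86 and 2.28 TPM in LT. Here NP replicate 1 was the highest animal, and no NP animal overlapped a pregnant one. The log2FC was -2.41 from NP to MT (SE 0.50, adjusted P = 0.0108) and -1.95 from NP to LT (SE 0.47, adjusted P = 0.00642), and both calls were kept under all alternatives run. STAT2, a transcription factor of the interferon pathway, also fell from NP to MT (adjusted P = 0.00235), with 91.2, 61.1 and 65.1 TPM in NP and 23.8 to 32.6 TPM in MT, and had its highest value in the same animal. CXCL11, a second ligand of CXCR3, was not tested, at 0.665 to 1.21 TPM in NP and at most 0.695 TPM in the pregnant animals.

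CCL22 and CCL17, which share the receptor CCR4 of regulatory and type 2 T cells, had the same order of stage means. CCL22 (ENSCPOG00000004546) was at 5.38, 8.82 and 22.4 TPM in NP, 0.650, 2.36 and 1.42 TPM in MT, and 0.592, 0.967, 3.16 and 0.892 TPM in LT. All NP animals lay above all pregnant ones, and the log2FC was -2.26 from NP to MT (SE 0.51, adjusted P = 0.0144) and -2.35 from NP to LT (SE 0.47, adjusted P = 0.00261). Without MT replicate 3 the adjusted P for MT was 0.0502. CCL22 was tested only because of its high NP mean, as was CCL17, so that these values describe the fall and are no test of it. CCL17 (ENSCPOG00000006326) had 0.584, 3.59 and 6.39 TPM in NP, 0.411, 1.22 and 1.50 TPM in MT, and 0.281, 0.131, 0.783 and 0.141 TPM in LT, with NP replicate 1 inside the range of the pregnant animals. From NP to LT its log2FC was -1.53 (SE 0.48, adjusted P = 0.022), and the adjusted P was above 0.05 without NP replicate 2, NP replicate 3 or LT replicate 2 (adjusted P = 0.0773, 0.0943 and 0.0512).

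CX3CL1 (ENSCPOG00000004548), the membrane-bound ligand of CX3CR1, declined more gently, with 8.19, 16.1 and 12.3 TPM in NP, 5.74, 7.51 and 10.5 TPM in MT, and 6.55, 6.68, 3.81 and 4.01 TPM in LT. NP and LT did not overlap, and the log2FC between them was -1.07 (SE 0.27, adjusted P = 0.00854). The receptor CX3CR1 (ENSCPOG00000002857), found on monocytes, macrophages and cytotoxic lymphocytes, had 8.22, 21.4 and 14.1 TPM in NP, 10.1, 11.6 and 7.81 TPM in MT, and 9.67, 7.28, 5.68 and 5.67 TPM in LT. NP replicate 1 lay within the LT range. Between NP and LT the log2FC was -0.88 (SE 0.29, adjusted P = 0.0255). This call was lost without NP replicate 2 (log2FC -0.58, adjusted P = 0.109), NP replicate 3, LT replicate 3 or LT replicate 4 (0.0621 to 0.0689), and also after median-ratio scaling (-0.62, adjusted P = 0.0663) and with edgeR (adjusted P = 0.0559).

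IL36A (ENSCPOG00000015601), an epithelial cytokine of the wider interleukin-1 family that the name rule did not exclude, was detected only in the NP animals. It had 14.7, 3.68 and 0.546 TPM there, which rested on 164, 30 and 5 reads, and 0 reads in each of the 7 pregnant animals. Set against a floor of 3 reads per library, the NP mean was at least 18.4-fold higher than MT and at least 25.2-fold higher than LT, and without NP replicate 1 these bounds were 6.15-fold and 8.43-fold. It was tested only because its NP mean reached 3 TPM, so that its adjusted P-values (0.0389 for MT and 0.0112 for LT) belong to a gene selected for being high in NP and add nothing to these counts. The adjusted P for MT stayed under 0.05 with 2 of the 10 animals left out in turn, NP replicates 1 and 3, and exceeded it without any of the others (adjusted P = 0.0527 to 0.103). It also rose above 0.05 after median-ratio scaling, with edgeR, with DESeq2 and with only the stages compared (adjusted P = 0.0528, 0.0854, 0.0610 and 0.115). SPRR3 and IVL, which belong to the cornified layer of squamous epithelium, had the same order among the NP animals, with 35.1, 8.83 and 2.14 TPM of SPRR3 and 118, 30.9 and 10.6 TPM of IVL. In the pregnant animals SPRR3 was at 0 to 0.165 TPM and IVL at 0.185 to 3.20 TPM. The other squamous markers were not confined to NP. KRT14 and PERP were at 1430 to 2803 and 813 to 1745 TPM in LT, PERP rose from NP to LT (log2FC 1.42, adjusted P = 0.0150, or 0.0566 and 0.0651 without NP replicate 2 or 3), TP63 and DSG3 were not called in any comparison, and CRNN was at most 0.193 TPM. Their part in the IL36A values was not tested.

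IL7 and IL17D were lower in LT than in NP, with MT between them by its mean. IL7 (ENSCPOG00000009953), a survival factor for lymphocytes, had 6.53, 4.46 and 3.51 TPM in NP, 3.55, 2.73 and 2.29 TPM in MT, and 1.71, 3.10, 1.58 and 1.71 TPM in LT. IL17D (ENSCPOG00000011462), another cytokine of the interleukin-17 family, was at 6.87, 4.89 and 5.83 TPM in NP, 4.43, 3.79 and 3.96 TPM in MT, and 2.96, 2.89, 3.65 and 2.14 TPM in LT. IL17D did not overlap between any of the stages, and IL7 did not overlap between NP and LT. From NP to LT the log2FC of IL17D was -0.81 (SE 0.17, adjusted P = 0.00341), a call that held under every alternative run, while neither NP to MT nor MT to LT was called (adjusted P = 0.128 and 0.117). For IL7, which was tested only because of its NP mean, the log2FC of -0.94 (SE 0.24, adjusted P = 0.00878) is a description, its animals overlapped at both single steps, and neither was called (adjusted P = 0.142 and 0.272).

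**Figure D3:**
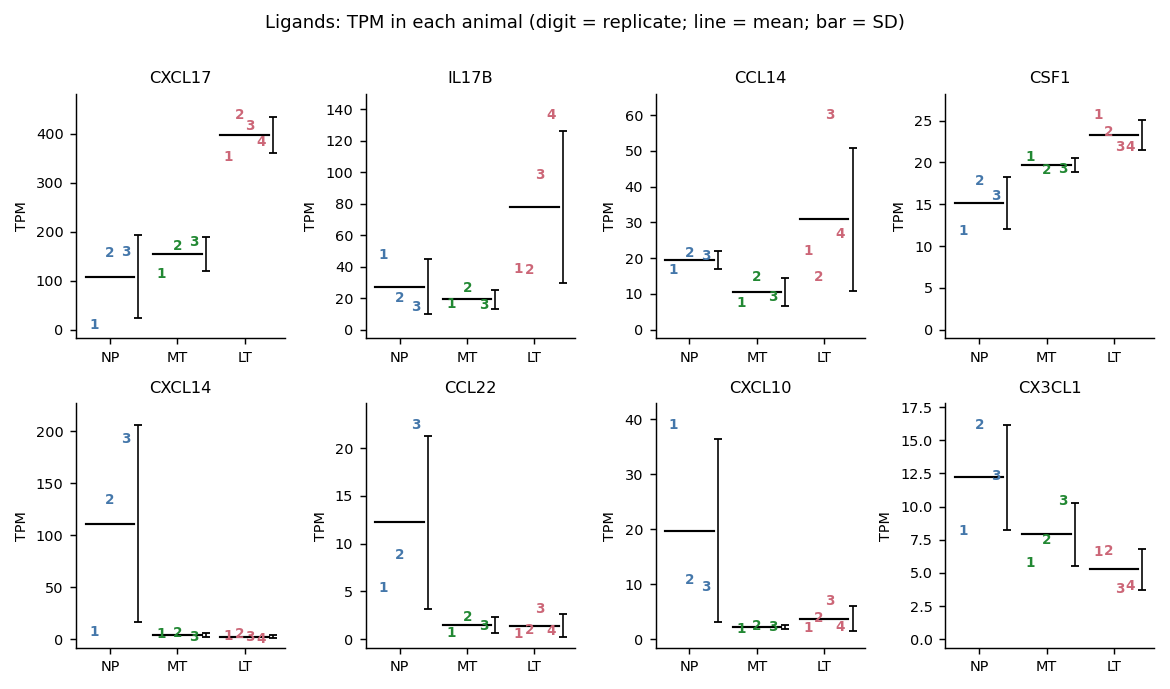
TPM of 8 ligands in each animal (digits are the replicate numbers, horizontal lines the stage means, and bars the SD, cut at 0 where it would pass below), for NP (n = 3), MT (n = 3) and LT (n = 4). In the upper row the LT means are highest, with all 4 LT animals of CXCL17 at 353 TPM or more, and in the lower row the NP means are highest, with NP replicate 1 low for CXCL14 and high for CXCL10.

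The remaining abundant ligands gave weak calls or none. CCL21 (ENSCPOG00000005431), which guides dendritic cells into lymphatic vessels, is made by lymphatic endothelium. It had the highest mean over all 10 animals of the 69 genes, although CXCL17 was above it in every LT animal. It had 566, 465 and 466 TPM in NP, 150, 390 and 251 TPM in MT, and 259, 387, 325 and 323 TPM in LT. All NP animals were above all pregnant ones, but the MT animals spread widely, and MT replicate 1 carried much of the difference. From NP to MT the log2FC was -1.02 (SE 0.29, adjusted P = 0.0357). Without MT replicate 1 it was -0.66 (adjusted P = 0.0639), and the call was also lost without any 1 of NP replicates 1, 2 and 3, MT replicate 3, LT replicate 3 and LT replicate 4 (adjusted P = 0.0515 to 0.0930). With no filter, median-ratio scaling, edgeR or only the stages compared it was lost as well (adjusted P = 0.0517, 0.0751, 0.101 and 0.0960). Between NP and LT it was -0.63 (SE 0.27, adjusted P = 0.072). The endothelial marker CDH5 was lower in MT than in NP as well, with 33.9 to 46.3 TPM in NP and 21.5 to 28.1 TPM in MT (adjusted P = 0.0336, lost under 8 of 19 alternatives, up to 0.109 without NP replicate 2), while TEK and KDR were not called at that step. From MT to LT all 3 endothelial markers fell, by 0.59 to 1.09, while CCL21 went from a mean of 264 TPM to 324 TPM without a call (adjusted P = 0.297). The late fall of CDH5 was lost under 8 of 19 alternatives (adjusted P = 0.113 without MT replicate 2), and that of TEK without MT replicate 2 or 3 (adjusted P = 0.055 and 0.0502). The part of these markers in the CCL21 values was not tested.

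CXCL12 (ENSCPOG00000014912), the stromal ligand of CXCR4 and CXCR7, had 110, 194 and 214 TPM in NP, 61.1, 230 and 138 TPM in MT, and 85.0, 165, 222 and 147 TPM in LT. The stages overlapped throughout, and the spread within each stage was wider than the differences between the means. None of the comparisons was called (adjusted P = 0.577, 0.73 and 0.754). CCL20 (ENSCPOG00000010180), the epithelial ligand of CCR6, had 5.75, 4.63 and 21.0 TPM in NP, 6.65, 15.6 and 31.3 TPM in MT, and 7.81, 8.09, 8.70 and 3.42 TPM in LT. The ranges of the 3 stages overlapped, and no comparison was called (adjusted P = 0.391, 0.175 and 0.674).

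Among the chemokine receptors, the atypical receptor CXCR7 rose late. CXCR7 (ENSCPOG00000014142), which takes up CXCL12, had 49.2, 46.6 and 50.3 TPM in NP, 30.8, 31.1 and 55.9 TPM in MT, and 76.7, 89.6, 140 and 121 TPM in LT. Every LT animal was above every other animal, and the NP animals were almost equal. The log2FC was 1.44 from MT to LT (SE 0.24, adjusted P = 0.0038) and 1.08 from NP to LT (SE 0.24, adjusted P = 0.00446), and both calls were kept under all alternatives run. The LT mean was 107 ± 28.7 TPM (SD, n = 4), against 48.7 ± 1.94 TPM (SD, n = 3) in NP and 39.3 ± 14.4 TPM (SD, n = 3) in MT. Its ligand CXCL12 showed no called difference over the same animals.

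CCR2 (ENSCPOG00000011140), the receptor that brings inflammatory monocytes into tissue, went the other way. Its level was 17.7, 17.8 and 11.6 TPM in NP, 6.60, 7.35 and 5.57 TPM in MT, and 8.05, 4.88, 4.09 and 2.19 TPM in LT. No NP animal overlapped a pregnant one. The log2FC was -1.60 from NP to LT (SE 0.31, adjusted P = 0.00198), a call that held under every alternative, and -1.14 from NP to MT (SE 0.33, adjusted P = 0.038). The NP to MT call was lost without NP replicate 1 or 2, any MT animal, LT replicate 2 or LT replicate 3 (adjusted P = 0.0556 to 0.125). It was also lost with a pseudocount of 0.1, with no filter, after median-ratio scaling and with edgeR (adjusted P = 0.0529, 0.0562, 0.0613 and 0.0681). The markers of monocytes, macrophages and dendritic cells were divided from NP to LT. CD163 and CD14 rose (log2FC 2.30 and 1.41, adjusted P = 0.000766 and 0.00163), ITGAX fell with the general leukocyte marker PTPRC (-1.24 and -0.98, adjusted P = 0.0169 and 0.0154), and CD68 was not called (0.07, adjusted P = 0.913). The falls of ITGAX and PTPRC were lost without NP replicate 2 (adjusted P = 0.0778 and 0.059), and that of ITGAX without NP replicate 3 as well (0.0653). Their part in the CCR2 values was not tested.

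**Figure D4:**
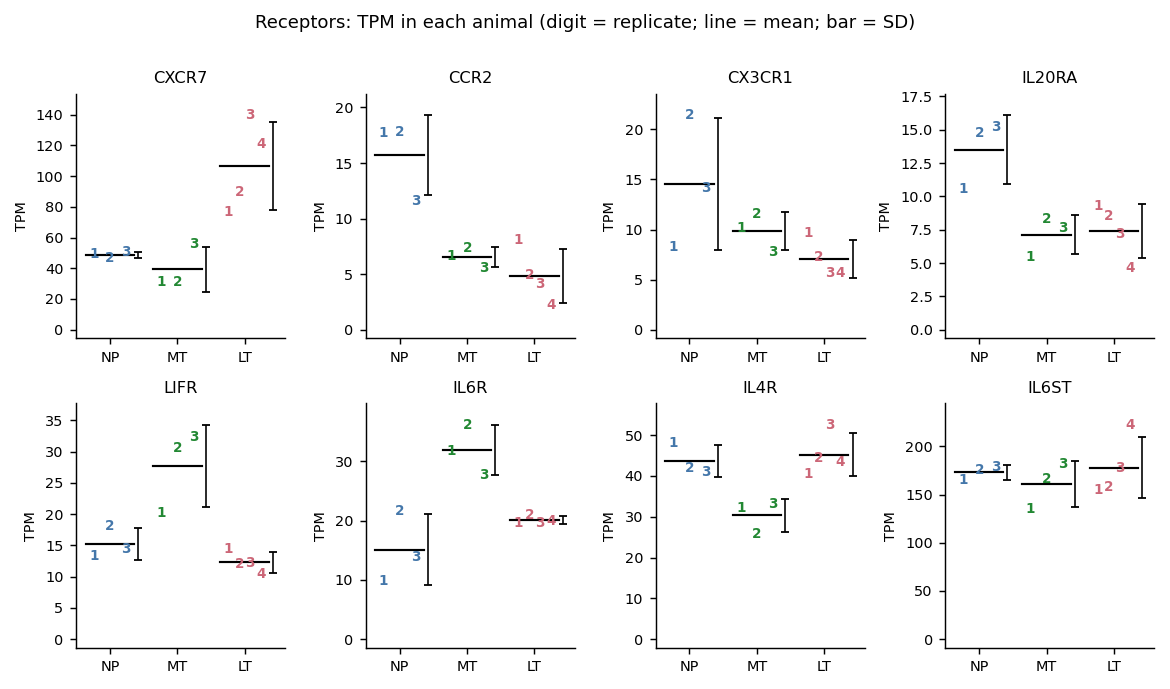
TPM of 8 receptors in each animal (digits are the replicate numbers, horizontal lines the stage means, and bars the SD), for NP (n = 3), MT (n = 3) and LT (n = 4). CXCR7 is highest in the 4 LT animals, CCR2 and IL20RA in the 3 NP animals, LIFR and IL6R in the 3 MT animals, IL4R is lowest in MT, and IL6ST overlaps between all stages.

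LIFR and IL6R, receptors of the interleukin-6 family, had their highest level at mid-pregnancy. LIFR (ENSCPOG00000000803), the receptor of leukemia inhibitory factor, had 13.3, 18.1 and 14.4 TPM in NP, 20.1, 30.6 and 32.3 TPM in MT, and 14.5, 12.0, 12.2 and 10.4 TPM in LT. All MT animals were above all others. It rose by a log2FC of 0.80 from NP to MT (SE 0.19, adjusted P = 0.0183) and fell by 1.09 from MT to LT (SE 0.18, adjusted P = 0.00361). The fall held under all alternatives, and the rise was lost without NP replicate 3 (adjusted P = 0.0534), MT replicate 2 (0.0637) or MT replicate 3 (0.0781), and with only the stages compared (0.0624). IL6R (ENSCPOG00000003998), the interleukin-6 receptor, had 9.85, 21.5 and 13.9 TPM in NP, 31.7, 36.2 and 27.7 TPM in MT, and 19.7, 21.0, 19.6 and 20.0 TPM in LT. Again all MT animals were above all others, and the LT animals were nearly equal. It rose from NP to MT by 1.09 (SE 0.22, adjusted P = 0.00951), which held with each animal left out but not with only the stages compared (adjusted P = 0.0512). From MT to LT it fell by 0.63 (SE 0.21, adjusted P = 0.0425), a call kept with 2 of the 10 animals left out in turn, NP replicates 1 and 2, and lost without any of the others (adjusted P = 0.0543 to 0.15), and also with no filter, after median-ratio scaling and with edgeR (adjusted P = 0.0632, 0.0651 and 0.0713).

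IL6ST (ENSCPOG00000013354), the signaling chain that LIFR, IL6R and OSMR use, had the third highest mean over all animals. It had 165, 176 and 179 TPM in NP, 135, 166 and 181 TPM in MT, and 155, 157, 177 and 222 TPM in LT. Its stages overlapped and no comparison was called (adjusted P = 0.608, 0.464 and 0.89). OSMR, the oncostatin M receptor, had 60.8 to 101 TPM in NP, 80.4 to 156 in MT and 83.6 to 124 TPM in LT, without a call. CNTFR, the ciliary neurotrophic factor receptor, had 4.79 to 7.18 TPM in NP, 4.94 to 6.57 in MT and 2.21 to 2.61 TPM in LT, and fell from MT to LT (log2FC -0.91, adjusted P = 0.00500). Of the ligands, LIF was not tested, at 1.07 to 3.29 TPM in NP, 0.584 to 1.40 in MT and 0.480 to 1.58 TPM in LT, and IL11 had 0.712 to 1.60 TPM over all animals. CLCF1, another ligand of the family, fell from 15.9 to 17.6 TPM in NP to 6.54 to 8.17 TPM in MT (log2FC -1.05, adjusted P = 0.00366). CTF1, or cardiotrophin, had 8.63 to 13.0 TPM in NP and 4.96 to 7.54 TPM in LT (log2FC -0.65, adjusted P = 0.0135). This call was lost after median-ratio scaling (adjusted P = 0.0771), with edgeR and DESeq2 on the read counts (0.145 and 0.212) and without NP replicate 3 (0.0588).

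IL4R (ENSCPOG00000001333), the shared receptor chain of interleukins 4 and 13, was lowest at mid-pregnancy. Its level was 48.1, 41.8 and 41.1 TPM in NP, 32.2, 25.8 and 33.1 TPM in MT, and 40.4, 44.5, 52.5 and 43.5 TPM in LT. No MT animal overlapped the others, and NP and LT overlapped. It rose from MT to LT by a log2FC of 0.56 (SE 0.12, adjusted P = 0.00888) under all alternatives. From NP to MT it was -0.52 (SE 0.13, adjusted P = 0.0213), and this call was lost without MT replicate 2 (-0.41, adjusted P = 0.0684), after median-ratio scaling (-0.39, adjusted P = 0.11) and with edgeR and DESeq2 on the read counts (adjusted P = 0.101 and 0.0745), and with only the stages compared (0.0616). IL13RA1, which pairs with IL4R, fell from NP to MT by 0.98 (adjusted P = 0.00135), from 88.9 to 123 TPM in NP to 46.7 to 55.1 TPM in MT, and was at 59.5 to 70.9 TPM in LT. The decoy receptor IL13RA2 had 5.89 to 19.9 TPM in NP and 29.5 to 67.3 TPM in LT, and rose between them by 1.68 (adjusted P = 0.0113). Interleukin 13 was counted with fewer than 10 reads in all.

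IL17RA (ENSCPOG00000024172), the common chain of the interleukin-17 receptors, moved little. It had 20.8, 18.9 and 18.4 TPM in NP, 19.5, 14.6 and 14.9 TPM in MT, and 19.4, 20.9, 22.7 and 21.3 TPM in LT, and MT replicate 1 lay within the ranges of the other stages. The log2FC from MT to LT was 0.36 (SE 0.11, adjusted P = 0.0402), and the call was lost without NP replicate 2, MT replicate 2, MT replicate 3, or LT replicate 2, 3 or 4 (adjusted P = 0.0538 to 0.152) and with no filter (0.0538). IL17RC was at 22.0 to 33.6 TPM over all animals without a call, while IL17RD fell at each step, from 15.9 to 22.7 TPM in NP to 11.6 to 12.5 in MT and 4.87 to 5.97 TPM in LT (adjusted P = 0.0109 and 0.00224). The ligands IL17A, IL17C, IL17F and IL25 were not tested. IL17C was highest in NP replicate 1 at 4.90 TPM and did not exceed 1.23 TPM in any other animal.

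IL20RA and IL28RA, which serve interleukins 19, 20 and 24 and the lambda interferons in epithelia, were highest in estrus. IL20RA (ENSCPOG00000007530) had 10.6, 14.8 and 15.2 TPM in NP, 5.48, 8.27 and 7.62 TPM in MT, and 9.25, 8.56, 7.18 and 4.63 TPM in LT. NP did not overlap with either pregnant stage, and the log2FC was -0.84 to MT (SE 0.24, adjusted P = 0.0394) and -0.81 to LT (SE 0.23, adjusted P = 0.0136). The MT call was kept with 3 of the 10 animals left out in turn, NP replicate 1 and LT replicates 1 and 4, and lost without any of the others (adjusted P = 0.0537 to 0.113), and the LT call was lost without NP replicate 2 or 3 (adjusted P = 0.0524 and 0.0533). The MT call was also lost with no filter, edgeR and only the stages compared (adjusted P = 0.0579, 0.0505 and 0.0562), and the LT call after median-ratio scaling and with edgeR (adjusted P = 0.0507 and 0.0578). IL28RA (ENSCPOG00000008034) had 9.17, 8.58 and 8.67 TPM in NP, 6.17, 5.36 and 5.68 TPM in MT, and 4.63, 6.05, 7.79 and 7.08 TPM in LT. Its calls (NP to MT, adjusted P = 0.0491, and NP to LT, adjusted P = 0.0415) were lost under 15 and 14 of 19 alternatives, and its log2FC from NP to LT was -0.43, or -0.17 after median-ratio scaling (adjusted P = 0.43). Each was kept with 2 of the 10 animals left out in turn, LT replicates 1 and 3 for MT and LT replicates 3 and 4 for LT, and lost without any of the others (adjusted P = 0.0501 to 0.129). The ligands IL19, IL20 and IL24 stayed below 1 TPM in every animal.

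CXCR6 and IL27RA, receptors carried by lymphocytes, were low, with a wide spread within NP and MT. CXCR6 (ENSCPOG00000023635), a receptor of tissue-resident T cells and natural killer cells, had 1.22, 6.27 and 4.36 TPM in NP, 1.42, 5.05 and 3.50 TPM in MT, and 1.83, 1.02, 0.603 and 0.163 TPM in LT. NP replicate 1 and MT replicate 1 lay within the LT range. The log2FC from NP to LT was -1.29 (SE 0.47, adjusted P = 0.0409), a call lost without NP replicate 2 or 3, MT replicate 3, or LT replicate 2, 3 or 4 (adjusted P = 0.0562 to 0.164), and with no filter, median-ratio scaling or edgeR (adjusted P = 0.0535, 0.0672 and 0.0604). IL27RA (ENSCPOG00000013567), the interleukin-27 receptor of T cells, had 1.18, 5.61 and 5.08 TPM in NP, 1.66, 2.93 and 2.04 TPM in MT, and 1.27, 1.06, 0.743 and 0.647 TPM in LT. IL27RA too was tested only because of its NP mean, and its log2FC between NP and LT was -1.22 (SE 0.37, adjusted P = 0.0194), with an adjusted P above 0.05 without NP replicate 2 or 3 (adjusted P = 0.0871 and 0.0794). Its highest values were again in NP replicates 2 and 3.

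The T cell genes CD3E and CD3G were measured in the same animals. CD3E had 1.26, 9.42 and 7.30 TPM in NP, 2.82, 8.58 and 4.79 TPM in MT, and 3.78, 2.26, 0.795 and 1.22 TPM in LT. NP replicate 1 and MT replicate 1 were the lowest of their stages for CD3E, for CD3G and for CXCR6, IL27RA, IL2RB, IL2RG and IL7R, receptors that were chosen with their values known. MT replicate 1 was not the lowest MT animal for IL10RA, IL21R, CX3CR1 or CCR10. The part of T cell numbers in these receptors was not tested. IL2RB, IL2RG and IL7R, chains of the interleukin-2 and interleukin-7 receptors, were tested without a call, and ranged over all animals from 1.45 to 12.9, 1.73 to 6.73 and 0.575 to 7.78 TPM. Of the 65 genes with a read in NP, NP replicate 1 was the lowest NP animal in 40 and the highest in 17, and among the receptors alone it was lowest in 22 of 30. The same count over all genes was not made, so this is not read as a trait of the group. The median-ratio scaling factor of NP replicate 1 was 1.01, against 1.19 and 1.17 for NP replicates 2 and 3.

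**Figure D5:**
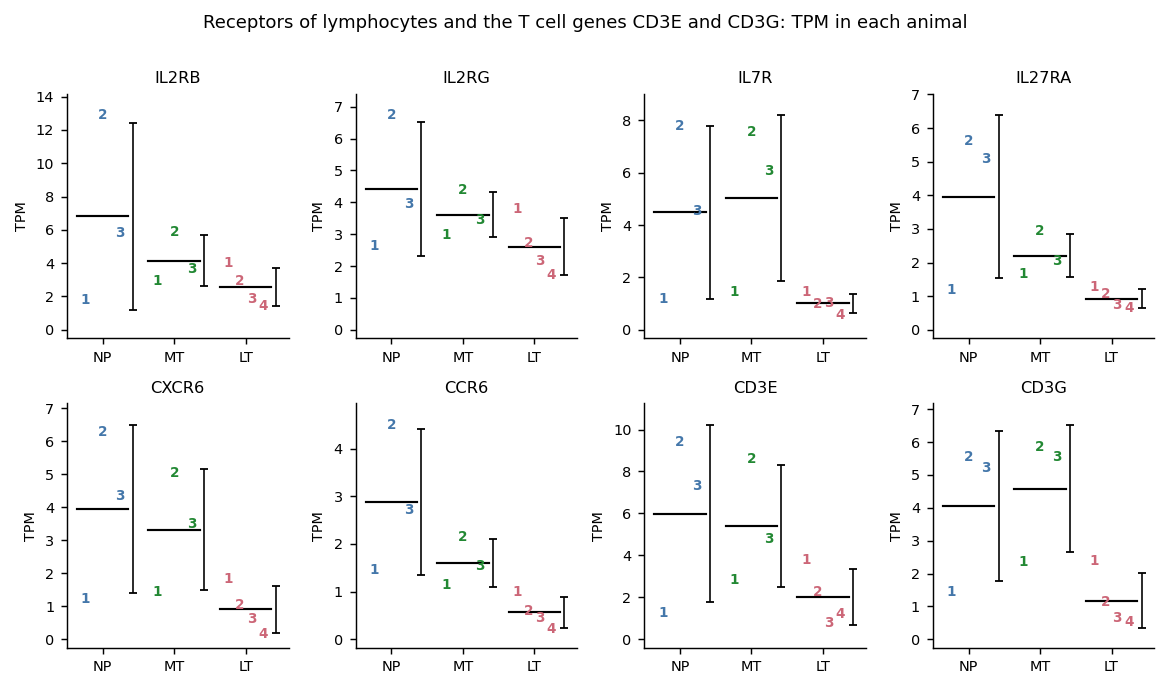
TPM of 6 receptors carried by lymphocytes and of the T cell genes CD3E and CD3G in each animal (digits are the replicate numbers, horizontal lines the stage means, and bars the SD), for NP (n = 3), MT (n = 3) and LT (n = 4). Replicate 1 is the lowest NP and the lowest MT animal in each of the 8 panels, and every LT animal lies below 4 TPM.

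The other 36 genes were too scarce to be tested, and 3 of them had no read. Of the 33 with reads, 26 had their highest mean in NP, 5 in MT and 2 in LT, and none exceeded 4.90 TPM in any animal. The highest stage was not counted over all scarce genes, so this tally is only a description. From NP to LT the animals did not overlap for 11 of them, all lower in LT, namely CCR6, CCR7, CCR9, CXCL11, CXCR5, IL17F, IL17RB, IL21R, IL23R, IL27 and IL2RA. For IL27 and IL17F this rests on TPM alone, since the lowest NP animal and LT replicate 2 had 1 read each, and in the other 9 the read counts did not overlap either. Of the 5455 genes with reads that were likewise too scarce to be tested, 21.1% did not overlap with LT lower and 2.79% with LT higher, against 33.3% and 0 of these 33 genes. Between NP and MT 5 of the 33 were lower and 2 higher without overlap, or 15.2% lower against 12.2%, and from MT to LT 8 were lower and 1 higher, or 24.2% lower against 13.5%. Of the 5455 scarce genes, 5.35% and 2.86% were higher without overlap in these comparisons. CCR7, the receptor of CCL21 and CCL19, had 2.08, 2.42 and 2.62 TPM in NP, 0.325 to 0.804 in MT and 0.372 to 0.851 TPM in LT, which rested on 46 to 56 reads per NP animal and 6 to 23 reads per pregnant animal. CCR6, the receptor of CCL20, had 1.46 to 4.50 TPM in NP, 1.13 to 2.14 in MT and 0.222 to 0.996 TPM in LT. CCL28, a mucosal ligand of CCR10, was one of the few with their lowest mean in NP, at 0 to 0.318 TPM in NP, 0.487 to 1.67 in MT and 0.113 to 1.01 TPM in LT. IL10RA and IL31RA were tested without a call, at 2.33 to 6.06 and 1.95 to 10.5 TPM.

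Of the partner genes that the name rule leaves out (other receptor chains, decoy receptors and ligands), 26 rows were found beside CXCR7 and 20 tested. From NP to MT 1 rose and 5 fell, where 6.27% of all genes rose and 12.2% fell, from MT to LT 1 rose and 3 fell (6.73% and 22.7% of all genes), and from NP to LT 3 rose and 6 fell (11.2% and 41.9%). The median log2FC of the list was -0.08, -0.01 and -0.19, against -0.14, -0.16 and -0.28 over all genes. After median-ratio scaling, an alternative chosen after seeing the data, 2 rose and 4 fell, 5 rose and 2 fell, and 4 rose and 4 fell, and the medians were 0.04, 0.15 and 0.10. With that scaling 10.4%, 14% and 24.7% of all genes rose and 7.74%, 15.3% and 25% fell. DARC, a decoy receptor of venular endothelium that binds many chemokines, had 26.0, 22.8 and 23.9 TPM in NP, 46.8, 68.0 and 95.8 TPM in MT, and 55.1, 48.9, 56.7 and 44.3 TPM in LT. Every pregnant animal was above every NP animal, and it rose by 1.44 from NP to MT (adjusted P = 0.00235) and was higher in LT than in NP by 1.05 (adjusted P = 0.00199). CCRL1, which takes up CCL19 and CCL21, fell from NP to MT, with 17.4, 10.1 and 6.31 TPM against 4.87, 2.24 and 1.90 TPM (adjusted P = 0.0286). That call was lost without NP replicate 1 or 2 or MT replicate 2 or 3 (adjusted P = 0.052 to 0.107), after median-ratio scaling (0.0531) and with only the stages compared (0.0586). PPBP, a chemokine of platelets that carries no CXCL name here, was at 593, 609 and 603 TPM in NP, 155, 79.2 and 69.2 TPM in MT, and 338, 467, 176 and 101 TPM in LT, a log2FC of -2.65 from NP to MT (adjusted P = 0.00709). CSF3R, the receptor of granulocyte colony stimulating factor, rose to 27.3, 16.9, 9.85 and 8.78 TPM in LT from 4.30 to 6.91 TPM in MT (log2FC 1.16, adjusted P = 0.0391), a call lost without any 1 of the MT animals or LT replicates 1 and 2 (0.0632 to 0.143), on square-root TPM (0.0514) and with no filter (0.0617).

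Of 26 genes of the pathways downstream (JAK, STAT, SOCS, NF-kappa B and interferon regulatory factor genes), all tested, 1 rose and 8 fell from NP to MT, 1 rose and 9 fell from MT to LT, and 1 rose and 17 fell from NP to LT. Over all genes 12.2%, 22.7% and 41.9% fell. The list median was -0.33, -0.35 and -0.61, against -0.14, -0.16 and -0.28 over all genes. After median-ratio scaling, where 7.74%, 15.3% and 25% of all genes fell, 5, 6 and 14 of the list fell and 2, 3 and 2 rose, with medians of -0.21, -0.19 and -0.32. NFKBIA, the inhibitor that holds NF-kappa B in the cytoplasm, rose from 86.3 to 103 TPM in NP to 162 to 230 TPM in MT (log2FC 1.04, adjusted P = 0.00764). NFKBIZ, a co-factor of NF-kappa B in epithelia, fell over the same step from 31.2 to 49.5 TPM to 11.2 to 16.5 TPM (log2FC -1.32, adjusted P = 0.00223). SOCS3, the feedback inhibitor of gp130 signaling, rose from MT (5.16, 13.5 and 20.8 TPM) to LT (34.0, 62.1, 25.2 and 20.9 TPM) by 1.43 (adjusted P = 0.0372), with LT replicate 4 level with the highest MT animal. This rise was lost under 10 of 19 alternatives, among them NP replicate 2, MT replicates 1 and 2 and LT replicates 1, 2 and 3 each left out (adjusted P = 0.0505 to 0.116), square-root TPM (0.0503), no filter (0.0586) and only the stages compared (0.0523).

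Of 21 leukocyte marker rows 15 were tested. From NP to MT 1 rose and 1 fell, from MT to LT 3 rose and 2 fell, and from NP to LT 4 rose and 6 fell, against 6.27% and 12.2%, 6.73% and 22.7%, and 11.2% and 41.9% of all genes. The summed level of the list was 4557 to 8443 TPM in NP, 9090 to 13407 in MT and 15022 to 19355 TPM in LT, and nearly all of it was S100A8 and S100A9, which squamous epithelium also makes. No marker of the list was at 0 in all animals. The summed level of the columnar and secretory markers was 383 to 625 TPM in NP, 2004 to 4144 in MT and 6364 to 8251 TPM in LT. That of the 7 squamous markers was 1301 to 4007 TPM, 564 to 2087 TPM and 2301 to 4676 TPM, and that of the endothelial markers was 63.6 to 81.4 TPM, 49.8 to 65.4 TPM and 27.4 to 41.2 TPM. The stromal markers (5207 to 10653 TPM) and smooth muscle markers (6638 to 22638 TPM) overlapped between stages, and in NP the highest animal of both was replicate 1. The part of these shifts in the differences above was not tested.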

How the data were processed

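RNA of the vaginal portion of the cervix of 10 Hartley guinea pigs (NP, MT and LT, n = 3, 3 and 4, separate animals) was sequenced by the authors as strand-specific libraries. Their methods name an Illumina protocol for total RNA samples. Per the labels and the methods of the study, bases were called with CASAVA 1.8.2, reads were aligned with TopHat2 to the cavPor3.69 build, and read counts per gene were made with HTSeq 0.5.4p1. The deposited table holds these counts and the TPM values that the authors computed from them. How reads shared by related or overlapping genes were treated is not given in the sources used here. Genome positions and sequences were not analysed here.

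Stages were compared with limma 3.58.1 (trend; R 4.3.3) on log2(TPM + 1), in 1 fit over all animals with stage as the only term, for genes with a stage mean of at least 3 TPM, two-sided, with Benjamini-Hochberg adjustment over 12645 genes. Exact permutation tests used square-root TPM. Alternatives were a pseudocount of 0.1, square-root TPM, no filter, a mean over all animals of at least 1 TPM, median-ratio scaling, edgeR 4.0.16 (quasi-likelihood) and DESeq2 1.42.0 on the counts, only the stages compared, the replicate number as a block, and each animal left out with the filter kept. The scripts were tested on simulated data. Reads counted per animal were 20047660 to 27351763 in NP, 18730665 to 25380420 in MT and 25804572 to 27881572 in LT. Values in each animal were given for genes called in at least 1 comparison or with a stage mean of at least 10 TPM, and other genes by range or count. Members and lists were chosen with earlier results of these data known.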

Additional observations from a re-analysis of the deposited data

Results flagged for a closer look

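In LT, the stage with 4 animals, 28 genes were examined for an animal that stands apart, by the gap to its nearest neighbor as a share of the whole range, against Dixon's critical value. Chance gives such a gap in about 5% of groups, and 3 were found. CCL20 had 3.42 TPM in LT replicate 4 and 7.81 to 8.70 TPM in the other LT animals (0.831 of the range). CCL22 had 3.16 TPM in LT replicate 3 and 0.592 to 0.967 TPM in the others (0.854 of the range). IL7 had 3.10 TPM in LT replicate 2 and 1.58 to 1.71 TPM in the others (0.915 of the range). Each of these genes singles out a different animal.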

How the results depend on the processing

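Of the 38 calls of single genes, 15 were kept under all 19 alternatives, and 16 whichever animal was omitted. Of these, 3 were falls from NP of genes tested only because of their NP mean, which are descriptions. Of 1577 alternative values of the 28 tested genes that were called or reached a mean of 10 TPM, 1346 kept direction and side of the threshold, 171 lost and 29 gained significance and 31 changed sign, none of these a call. From NP to MT 12 genes were called (18.5% of all genes), and 7 with edgeR (18.0%), 4 with only the stages compared (8.80%), 6 with the replicate block (12.5%) and 3 to 13 with an animal left out (8.70% to 33.0%). From MT to LT 7 were called (29.4% of all genes), and 11 with only the stages compared (38.8%), 3 with the block (13.4%) and 3 to 11 with an animal left out (15.4% to 42.1%). From NP to LT 19 were called (53.1% of all genes), and 11 to 22 with an animal left out (41.9% to 61.1%). The ranges of shares run over all animals left out, so their lower ends need not belong to the lowest counts. Those were without MT replicate 3 (3, against 8.70% of all genes), MT replicate 3 or LT replicate 4 (3, against 21.2% and 20.4%) and NP replicate 3 (11, against 43.6%). The highest counts were without NP replicate 1. Without a filter, on 66 genes, 10, 8 and 27 were called, against 14%, 19.8% and 41.8% of all genes. The cause was not tested.

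The median from NP to LT (-0.55) was -0.34 without a filter, -0.33 after median-ratio scaling, -0.35 with edgeR and -0.34 with DESeq2, and -0.59 to -0.44 with an animal left out. From MT to LT (-0.09) it was 0.00 after median-ratio scaling, 0.0197 with edgeR and 0.0170 with DESeq2, so that its sign turned, and -0.24 to 0.00 with an animal left out. Between NP and MT (-0.43) it was -0.52 to -0.35 with an animal left out. On square-root TPM the median is on another scale and is not set beside these.

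Sign changes under median-ratio scaling, edgeR and DESeq2 were IL6ST from NP to MT (0.0073, 0.0144 and 0.0178), CCL22 from MT to LT (0.0024, 0.117 and 0.114) and CXCL12 from NP to LT (0.114, 0.167 and 0.169), and, with edgeR and DESeq2, IL16 from MT to LT (0.0197 and 0.0170). With an animal left out, the ranges that cross 0 were, from NP to MT, CXCL12 (-0.84 to 0.10), CXCL17 (-0.0548 to 1.86), CXCR6 (-0.63 to 0.24), IL17B (-0.69 to 0.13) and IL6ST (-0.21 to 0.0036), from MT to LT, CCL22 (-0.39 to 0.16), CXCL12 (-0.28 to 0.67) and IL20RA (-0.13 to 0.21), and, from NP to LT, CCL20 (-0.67 to 0.31), CXCL12 (-0.47 to 0.0797), IL4R (-0.0261 to 0.12) and IL6ST (-0.0857 to 0.0867). Among the other 5 tested genes they were IL2RB (-0.95 to 0.20), IL2RG (-0.44 to 0.11) and IL7R (-0.40 to 0.72) from NP to MT and IL10RA (-0.0344 to 0.16) from MT to LT.

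The replicate numbers did not pair the animals. Deviations from the stage means correlated by -0.29 to 0.25 over genes in the 9 pairs of the same number, with 3 above 0.1, and by -0.27 to 0.31 in 24 pairs of different number. With the number as a block, IL6ST from NP to LT was at -0.0857 in place of 0.0258, and 15 of the 38 calls were lost. From NP to LT 14 genes (42.4%) were called, against 43.1% of all genes. The lost calls were CCL21, CXCL14, IL16, IL28RA, IL36A and IL4R from NP to MT. They were CCL14, IL17B, IL17RA and IL6R from MT to LT, and CX3CR1, CXCR6, IL17B, IL27RA and IL28RA from NP to LT. Outside the group, lost calls were, among others, CCRL1 from NP to MT, CSF3R from MT to LT, and CTF1, PERP and PTPRC from NP to LT.

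With 3 or 4 animals a stage, P-values measure the spread of these animals only.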

Other observations

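In 11 further rows the gene name carries a species suffix after a stem that would meet the name rule, which is why they are not counted above. They were noticed after the values were seen, and the same 19 alternatives were run for them. IL8, the main attractant of neutrophils, had 265, 69.1 and 32.6 TPM in NP, 1.40, 2.77 and 11.6 TPM in MT, and 6.55, 4.46, 11.9 and 4.25 TPM in LT. Every NP animal was above every pregnant animal, with NP replicate 1 highest, and the log2FC was -4.14 from NP to MT (limma adjusted P = 0.0067) and -3.56 from NP to LT (limma adjusted P = 0.00269). Both calls were kept under all 19 alternatives (highest adjusted P = 0.0339 and 0.0196). CCL2, the ligand of CCR2, had 74.3, 29.5 and 22.1 TPM in NP, 9.28, 12.3 and 17.0 TPM in MT, and 14.6, 18.2, 29.7 and 33.1 TPM in LT. The log2FC from NP to MT was -1.48 (limma adjusted P = 0.0432), and NP and LT overlapped. This call was lost under 13 of 19 alternatives, among them NP replicates 1 and 2, any MT animal and LT replicates 2 and 3 each left out (limma adjusted P = 0.0562 to 0.110), square-root TPM (0.0643), no filter (0.0622), median-ratio scaling (0.0858), edgeR (0.0622) and only the stages compared (0.0833).

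IL15, a growth factor of natural killer cells, had 9.19, 19.7 and 22.1 TPM in NP and 7.76 to 11.1 TPM in LT (log2FC -0.71, limma adjusted P = 0.0385). This call was lost under 12 of 19 alternatives, among them NP replicates 2 and 3, MT replicate 1 and LT replicates 1, 3 and 4 each left out (limma adjusted P = 0.0504 to 0.157), no filter (0.0572), median-ratio scaling (0.118), edgeR (0.0898), DESeq2 (0.0761) and only the stages compared (0.0648). CCL5, a chemokine of T cells, had 2.47, 13.8 and 7.78 TPM in NP and 1.10 to 2.85 TPM in LT (log2FC -1.45, limma adjusted P = 0.0215), a call lost without NP replicate 2, NP replicate 3 or LT replicate 3 (limma adjusted P = 0.0931, 0.0675 and 0.055). For both, NP replicate 1 lay within or near the LT range. CCL11, the eosinophil attractant, had 1.79 to 10.1 TPM in NP, 3.14 to 4.90 in MT and 7.72 to 17.2 TPM in LT without a call (limma adjusted P = 0.742, 0.0655 and 0.0934). TNFA was not tested, at 1.22 to 1.61 TPM in NP, 0.375 to 0.906 in MT and 0.511 to 1.06 TPM in LT.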
